A study of Homo sapiens with 4 samples.

Results

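A set of 10 miRNA families, each tied to a tissue other than epithelium, was examined in HCT116, a human colorectal carcinoma cell line. The members are every row of the table that carries one of 10 names, namely every strand of miR-142, miR-144, miR-150, miR-223, miR-451a and miR-486 (blood), miR-133a (muscle), miR-122 (liver), and miR-124 and miR-9 (neurons). Every name had a row, and together they made up 16 of the 1345 miRNA rows of the table. The study made 4 small-RNA libraries from HCT116 cells in which doxycycline can switch on a short hairpin RNA (shRNA) to knock down SAE2, the catalytic subunit of the enzyme that activates the protein modifier SUMO. Each of 2 lines with independent shRNAs gave a library labelled minus, read as uninduced, and a library labelled plus, read as induced. The 2 minus libraries are sh1 (replicate 1) and sh2 (replicate 2), the library of plus replicate 2 is sh2, and plus replicate 1 carries no shRNA number and was taken as sh1 by elimination. The table names the columns of both replicates 2 sh4 where the sample labels say sh2. All 4 libraries therefore share the HCT116 background and an integrated SAE2 shRNA, and the protocol text with 3 days of doxycycline and medium with 10% fetal calf serum is the same for each. Doxycycline-treated cells without an SAE2 shRNA, and medium without cells, were not analysed here.

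A miRNA is a short RNA cut from a hairpin precursor and loaded into an Argonaute protein, where bases 2 to 8 from its 5′ end, the seed, do most of the pairing with target mRNAs. Each hairpin can give a strand from its 5′ side (5p) and from its 3′ side (3p), of which usually a single strand is kept. The miRNAs described here are used as markers because their hairpins are transcribed mainly in their own lineage. miR-142 is common to blood cells, miR-223 to myeloid cells, miR-150 to mature lymphocytes, and miR-144, miR-451a and miR-486 to red-cell precursors, with miR-486 found in muscle as well. miR-122 is the dominant miRNA of hepatocytes, miR-133a belongs to heart and skeletal muscle, miR-124 to neurons, and miR-9 to neural progenitors and the developing brain.

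The mature sequences are shown because 2 of them, the strands of miR-9, carried nearly all of the signal, and because the seeds show whether another miRNA of these cells could supply the same pairing. RefSeq held a mature sequence (GRCh38.p14) for 8 of the 16 rows. Each is written 5′ to 3′ with the seed in capitals.
miR-9-5p: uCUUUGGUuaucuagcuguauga
miR-9-3p: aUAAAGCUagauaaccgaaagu
miR-122-5p: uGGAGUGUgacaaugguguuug
miR-142-3p: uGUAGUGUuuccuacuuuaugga
miR-142-5p: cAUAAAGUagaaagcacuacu
miR-144-3p: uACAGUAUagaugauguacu
miR-144-5p: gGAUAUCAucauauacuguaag
miR-223-3p: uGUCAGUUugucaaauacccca
The 8 seeds all differ. The letters AUAAAG stand at bases 2 to 7 of miR-142-5p and at bases 1 to 6 of miR-9-3p, so these strands share 6 letters shifted by 1 base.

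The hairpins of miR-9 are shown because 3 genes encode the same mature strands. They are written 5′ to 3′ with miR-9-5p and miR-9-3p in capitals.
MIR9-1: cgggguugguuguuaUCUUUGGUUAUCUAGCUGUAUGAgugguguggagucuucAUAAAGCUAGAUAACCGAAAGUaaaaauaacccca
MIR9-2: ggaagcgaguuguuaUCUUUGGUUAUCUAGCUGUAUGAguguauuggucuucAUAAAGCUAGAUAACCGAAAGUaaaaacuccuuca
MIR9-3: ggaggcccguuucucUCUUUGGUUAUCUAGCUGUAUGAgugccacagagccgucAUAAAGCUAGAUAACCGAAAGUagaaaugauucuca
MIR9-1 lies at chr1:156420341-156420429 on the minus strand, in an intron of C1orf61 (coordinates RefSeq GRCh38.p14, annotation GENCODE 29). MIR9-2 lies at chr5:88666853-88666939 on the minus strand, within an exon of the long non-coding RNA LINC00461. MIR9-3 lies at chr15:89368017-89368106 on the plus strand, in an intron of the long non-coding RNA MIR9-3HG. The hairpins differ in their flanks and in the 14 to 16 bases between the strands, and mature reads do not tell which of the 3 genes was transcribed.

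Values are normalised read counts, which summed to between 9700472 and 10519207 per library. The worth of 1 read was 0.9445 to 1.028 normalised counts, estimated from the low values. The floor was a chosen cut of 3 reads, or 2.83 to 3.08 normalised counts. A count of 0 does not show absence. For miR-150-3p at 0 reads, the 95% exact Poisson counting interval reached 3.72 normalised counts in minus replicate 1. It reached 3.48 in minus replicate 2 and 3.77 in plus replicate 2. A strand was classed as at the floor where no library exceeded 3 reads, as low where a library did and the mean over the 4 libraries was under 10, and as measured where that mean was at least 10. Of the 16 strands, 8 were measured, 4 were low and 4 were at the floor. This division was close to that of the whole table, where 709 rows (52.7%) were measured and 341 (25.4%) were at the floor. No length correction was applied because the 8 strands with a RefSeq sequence are 20 to 23 bases long. Lengths of the other strands were not available from that source. How well each miRNA is captured in library preparation was not measured, so differences in level between miRNAs are descriptions.

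miR-9 was the one family of the 10 with a strand above 1014 normalised counts in any library. miR-9-3p had 25083 normalised counts in minus replicate 1 and 23399 in minus replicate 2, against 29349.5 and 33451 in the plus replicates of the same numbers. It ranked 52 of 1345 by mean, between miR-25-3p at a mean of 28139.8 and miR-101-3p at 26055. miR-9-5p had 14627 and 13849 in the minus libraries and 18574 and 20142.5 in the plus libraries, ranking 61, between miR-454-3p at a mean of 19806 and miR-98 at 16679.6. For both strands each plus library lay above both minus libraries, which also held for 206 (29.1%) of the 709 measured rows. The strands of miR-9 made up 96.6% to 97.7% of the summed signal of the 16 rows, although miR-9-3p was only 0.241% to 0.318% of a whole library. miR-21-5p, the highest row of the table, had a mean of 2066976. The word restricted therefore states how the family was chosen, not its level in these cells. In bulk libraries, few cells with much miR-9 and many cells with little cannot be told apart.

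**Figure D1:**
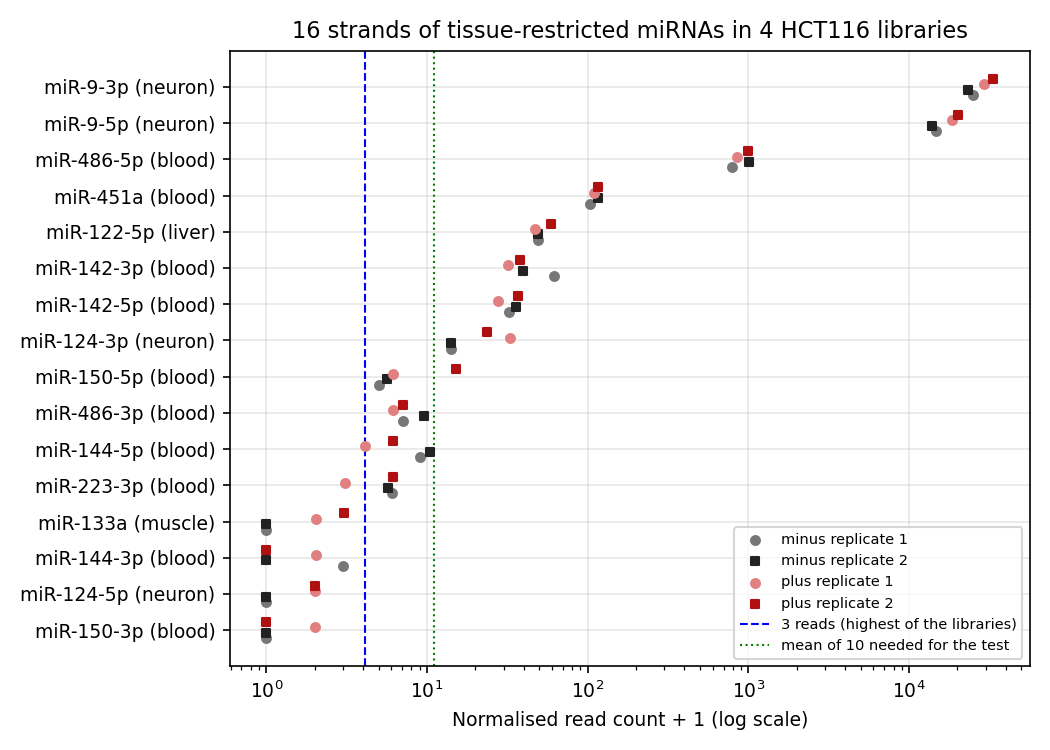
Normalised read count plus 1 on a log axis for each of the 16 strands (tissue in parentheses), with 1 point per library, the highest library's 3-read floor as a dashed line and the mean of 10 needed for the test as a dotted line. miR-9-3p and miR-9-5p lie at 13849 or above in every library, miR-486-5p near 1000, and miR-133a, miR-144-3p, miR-124-5p and miR-150-3p at or below 3 reads.

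The other neuronal family was far lower. miR-124-3p, a strand abundant in neurons, had 13.1 normalised counts in each minus library and 31.8 and 22.5 in plus replicates 1 and 2. The plus libraries lay above the minus libraries, at 53 against 27 reads in all, an order shared by 29.1% of the 709 measured rows. Its partner miR-124-5p was at the floor, with 0 reads in both minus libraries and 1 read in each plus library. The summed level of miR-9 and miR-124 rows was 37261 to 53617 per library, and without miR-9 it was 13.1 to 32.8.

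Among the blood miRNAs, the red-cell miRNAs miR-486-5p and miR-451a were the highest. miR-486-5p had 789 and 1014 normalised counts in the minus and 853 and 998 in the plus libraries, so the groups overlapped. Its partner strand miR-486-3p was low, at 5.16 to 8.55 normalised counts. Both miR-486 hairpins lie on chromosome 8, on opposite strands, within an intron of the red-cell cytoskeleton gene ANK1. miR-451a, whose hairpin is cut by Argonaute2 and not by Dicer, had 103 and 115 in the minus and 108 and 115 in the plus libraries. Its highest value was 1.12 times its lowest, and each library lay within the 95% exact Poisson counting interval of every other, for example 83.8 to 125 for minus replicate 1.

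miR-451a shares its genomic cluster with miR-144, and the cluster was unevenly represented. On chromosome 17 the hairpins of MIR451A (chr17:28861369-28861440), MIR144 (chr17:28861533-28861618) and MIR4732 (chr17:28861655-28861730) all lie on the minus strand within exons of the long non-coding RNA AC024267.1. miR-144-5p was low, with 8.06 and 9.51 normalised counts in the minus libraries and 3.12 and 5.12 in the plus libraries. miR-144-3p was at the floor, with 2 reads in minus replicate 1, 1 read in plus replicate 1 and none in the other libraries. miR-4732 had no row. The levels of the cluster thus ran from a mean of 110 for miR-451a to 6.45 and 0.76 for the strands of miR-144.

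Of the white-cell miRNAs, both strands of the pan-blood miR-142 were measured, at ranks 490 and 530 of 1345, and miR-150 and miR-223 were low or at the floor. miR-142-3p had 60.5 and 38.7 normalised counts in the minus and 30.9 and 36.8 in the plus libraries, and minus replicate 1 stood above the other 3. miR-142-5p had 31.3 and 34.98 in the minus and 26.8 and 35.7 in the plus libraries, with overlapping groups. The lymphocyte miRNA miR-150-5p was low, at 4.04 and 4.67 normalised counts in the minus and 5.16 and 14.2 in the plus libraries. The value of plus replicate 2 rested on 14 reads, with a counting interval of 7.81 to 24.0 that overlapped the interval of every other library. miR-150-3p was at the floor, with 1 read in plus replicate 1 alone. The myeloid miR-223-3p had 5.04 and 4.73 in the minus and 2.08 and 5.10 in the plus libraries, that is 2 to 5 reads a library.

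The muscle and liver markers differed in level. The row of miR-133a, which names no arm, was at the floor, with 0 reads in both minus libraries, 1 in plus replicate 1 and 2 in plus replicate 2. miR-122-5p, the hepatocyte miRNA, had 48.4 and 48.2 normalised counts in the minus libraries and 46.3 and 58.2 in the plus libraries. It was thus present at 45 to 57 reads in every library, and the groups overlapped. Its hairpin lies at chr18:58451074-58451158 on the plus strand, within an exon of MIR122HG.

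**Figure D2:**
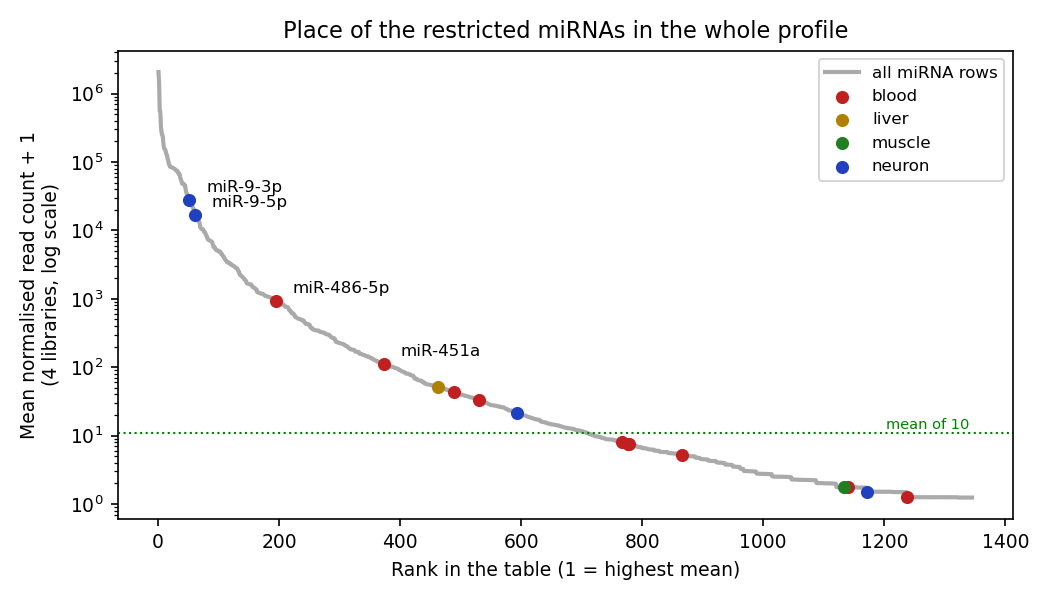
Mean normalised read count plus 1 over the 4 libraries (log axis) against rank in the table for all 1345 rows (grey line), with the 16 strands as points coloured by tissue. miR-9-3p and miR-9-5p sit at ranks 52 and 61, miR-486-5p at 195 and miR-451a at 374, and the other 12 at rank 463 or beyond.

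The measured strands could be put in order of mean level. miR-9-3p, miR-9-5p, miR-486-5p, miR-451a and miR-122-5p followed each other with no overlap of their libraries, and the step from miR-9-5p to miR-486-5p was 18.4-fold. Below them, neighbours overlapped over all 4 libraries, namely miR-122-5p with miR-142-3p, miR-142-3p with miR-142-5p, and miR-142-5p with miR-124-3p. Within each library miR-142-3p lay above miR-142-5p, at 3p to 5p ratios of 1.93 and 1.11 in the minus and 1.15 and 1.03 in the plus libraries. miR-122-5p lay below miR-142-3p in minus replicate 1 alone, and miR-142-5p below miR-124-3p in plus replicate 1 alone. Differences between neighbours were not tested.

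Lists of other markers were set beside these levels. In the epithelial and intestinal list (miR-200a, miR-200b, miR-200c, miR-141, miR-429, miR-192, miR-194, miR-215, miR-31 and miR-375), 16 of 17 strands were measured, with miR-200c-3p at a mean of 126627. The markers of the line's epithelial label were thus present, and they held 6.14% to 6.78% of each library. miR-31-5p alone made up 319898 of the 608160 normalised counts of the list in minus replicate 1. Only 4 of these 17 strands had a higher mean than miR-9-3p and 5 a higher mean than miR-9-5p, while 12 lay above miR-486-5p and 14 above miR-451a. The 10 blood rows together held 0.0102% to 0.0127% of a library.

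A further 16 names tied to blood, muscle, liver or neurons gave 17 rows, of which 7 were measured, 4 low and 6 at the floor. None of the 17 had a higher mean than miR-9-5p, and miR-128, a brain miRNA, was the one above miR-486-5p, at a mean of 10432. miR-1 and miR-208b, muscle miRNAs, had means of 9.51 and 1.02, and miR-499a-5p, encoded within a slow myosin gene, 225. miR-155-5p of activated white cells was at the floor, with a mean of 1.02, and miR-885-5p of liver had a mean of 1.98. In the stroma and endothelium list (miR-143, miR-145, miR-199a and miR-126) 7 of 8 strands were measured, in sum 0.191% to 0.229% of a library. The median of its strand means was 2646, beside 3907 in the epithelial list, so measured strands were not particular to the epithelial list.

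**Figure D3:**
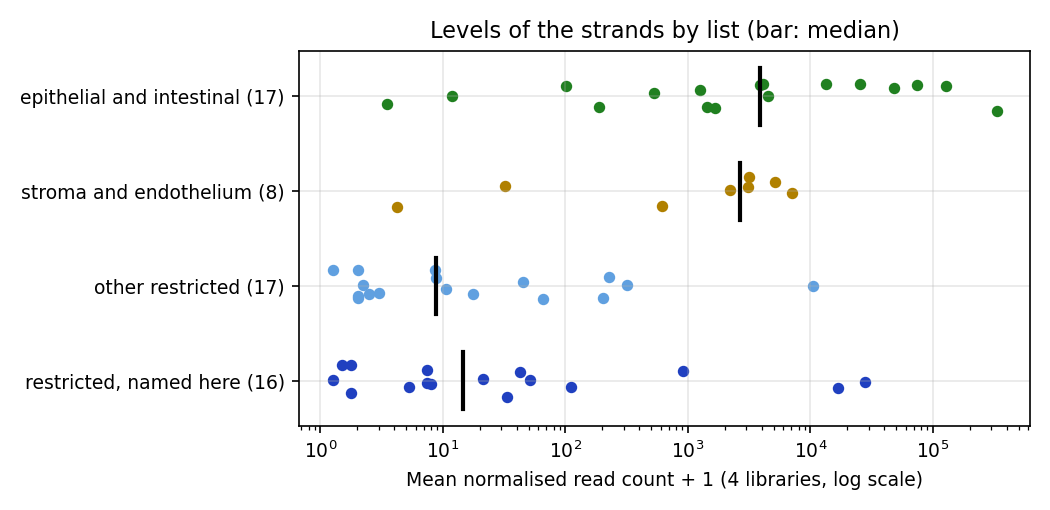
Mean normalised read count plus 1 over the 4 libraries (log axis) of each strand in 4 lists, with the number of strands in parentheses and a bar at the median; the vertical scatter within a list has no meaning. The epithelial strands lie mostly above 1000, and among the 16 strands named here the strands of miR-9 alone do.

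The balance of the strands was described next, as the share of the 5p strand in the sum of both. For miR-9 it was 36.8% and 37.2% in the minus libraries against 38.8% and 37.6% in the plus libraries, so miR-9-3p exceeded miR-9-5p in every library. These shares rest on 39395 to 52491 reads, and the 95% exact binomial (Clopper-Pearson) interval was 36.4% to 37.3% in minus replicate 1. The mean share was 37.6% ± 0.837 (SD over the 4 libraries). The plus libraries lay above the minus libraries by 1.16 percentage points (exact two-sided permutation p = 0.33, the smallest that 2 against 2 libraries can give). A difference between the groups was not particular to miR-9. For example, the share of miR-335 was 68.7% and 68.6% in the minus against 76.7% and 76.0% in the plus libraries. How many miRNAs differed by as much was not counted, so the difference of miR-9 is a description only.

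Even use of both strands was uncommon among the miRNAs compared. These were 116 with both strands under the same name apart from the arm and a summed mean of at least 1000. miRNAs whose strands differ by a copy number in the name, such as miR-24-3p and miR-24-2-5p, were left out. Of the 116, the 3p strand was higher in 48. The median share of the minor strand was 2.20%, against 37.6% for miR-9, and 6 of the 116, miR-9 included, had a minor strand at or above that share. miR-142 also gave both strands, with 34.1% and 47.5% of 5p in the minus and 46.4% and 49.3% in the plus libraries, but on only 56 to 91 reads, where the interval of minus replicate 1 ran from 24.5% to 44.7%. miR-486 was one-sided, with 99.2% to 99.4% of 5p. miR-124 was one-sided towards 3p, at 0% of 5p in both minus libraries and 3.11% and 4.34% in the plus libraries, where 13 reads in minus replicate 1 allow up to 24.7%. miR-122-3p and miR-223-5p had no row, so no share was taken for those miRNAs.

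**Figure D4:**
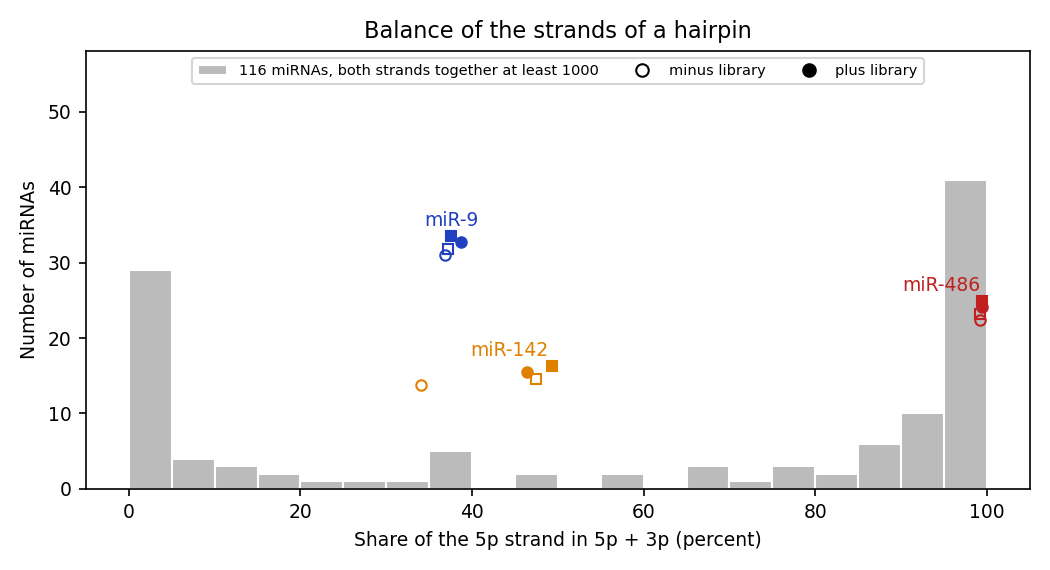
Histogram of the mean share of the 5p strand (percent) over the 116 miRNAs with both strands under the same name apart from the arm and a summed mean of at least 1000, with the library values of miR-9, miR-486 and miR-142 as points whose height has no meaning. Most miRNAs lie near 0 or 100, and miR-9 lies between 36.8% and 38.8%.

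Shared seeds were looked up in RefSeq for the 8 strands with a sequence. For 7 of these no other human mature miRNA in that table had the same bases 2 to 8, and the 1 match of miR-142-5p had no row. In these libraries each of the 8 seeds was thus read from its own strand only, as far as the 1078 table rows with a RefSeq sequence show. With bases 2 to 7 only, a match looked for after the values were seen, miR-144-3p shared ACAGUA with miR-101-3p.
miR-101-3p: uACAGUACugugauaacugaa
miR-101-3p had 22608 to 30407 normalised counts, while miR-144-3p had at most 2.01. By the same measure miR-223-3p shared GUCAGU with miR-4697-3p, at 46.1 to 114 normalised counts.

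The comparison of plus with minus libraries asked whether these miRNAs moved with induction of the SAE2 shRNA. Both strands of miR-9 rose, and none of the other 6 tested strands passed in either direction. At an unadjusted limma p under 0.05 there were 3 of the 8 strands, miR-124-3p being the third, against a background of 37.9% of the 709. Of the 8 tested strands, 2 rose, against a background of 13.4% of all 709 tested miRNAs that rose, 15.1% that fell and 28.5% called in all. Among 190 rows whose mean reached 1000, which include both miR-9 strands, 51 rose (26.8%). The miR-9 strands come from the same hairpins and are not separate observations. Under median-ratio scaling 121 miRNAs rose and 83 fell, against 95 and 107 with the values as deposited. The test was limma on log2(value + 1), with adjustment over all 709.

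miR-9-5p rose from 14238 ± 550 (SD, n = 2) without induction to 19358 ± 1109 (SD, n = 2) with it, a log2 change of 0.44 ± 0.084 (SE; Benjamini-Hochberg adjusted p = 5.65e-05, limma). miR-9-3p rose from 24241 ± 1191 to 31400.3 ± 2900.2 (SD, n = 2 each), a log2 change of 0.37 ± 0.084 (SE; adjusted p = 0.000687, limma). The rise was 1.36-fold and 1.30-fold, smaller than most, and the strands stood 63 and 68 by size among the 95 rises. By line, the log2 change of miR-9-5p was 0.34 in replicates 1 and 0.54 in replicates 2, and that of miR-9-3p was 0.23 and 0.52.

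Both calls were lost with either plus library left out. The limma adjusted p of miR-9-5p became 0.0746 when plus replicate 1 was left out and 0.0599 when plus replicate 2 was. For miR-9-3p it became 0.0762 and 0.0958 in the same order, and 0.0861 when minus replicate 2 was left out. Of 6 tested strands in the list of other neuronal names (miR-128, miR-129, miR-137, miR-138, miR-153, miR-218 and miR-219), 0 passed in limma, 0 also at an unadjusted p under 0.05, and the list had summed levels of 11320 and 11304 in the minus and 10863 and 10901 in the plus libraries.

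miR-124-3p had the largest difference among the 8 strands and lay at the threshold. Its log2 difference of 0.97 had a standard error of 0.38 and a limma adjusted p of 0.0514, and it was 1.21 and 0.73 in the 2 lines. It passed with a pseudocount of 5 (limma adjusted p = 0.0465) and under median-ratio scaling (0.0344), and its adjusted p ranged from 0.0344 to 0.253 over 12 alternatives. The ratio of reads, plus over minus, was 1.98, and its 95% exact binomial interval, for counting error only, ran from 1.22 to 3.27. For miR-142-3p, which did not pass either, that ratio was 0.659 (0.476 to 0.908). An interval that excludes 1 is thus not a call.

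The blood and liver strands gave small or uneven differences. A log2 difference of 0.05 was found for miR-486-5p, with a standard error of 0.12, and 0.04 for miR-451a, with a standard error of 0.20 (adjusted p = 0.826 and 0.909, limma). miR-122-5p was at 0.10 and miR-142-5p at −0.09, with limma adjusted p-values of 0.814 and 0.853. miR-142-3p was at −0.51 (limma adjusted p = 0.205), with −0.95 in replicates 1 and −0.07 in replicates 2. At this depth the standard errors of these strands, 0.12 to 0.31, do not show that their levels were alike. The median log2 difference of the 8 strands was 0.07, beside −0.03 over all 709. The plus libraries lay wholly above the minus libraries for 3 of the 8 strands (background 29.1%), wholly below for 1 (background 33.9%), and overlapped with them for 4.

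**Figure D5:**
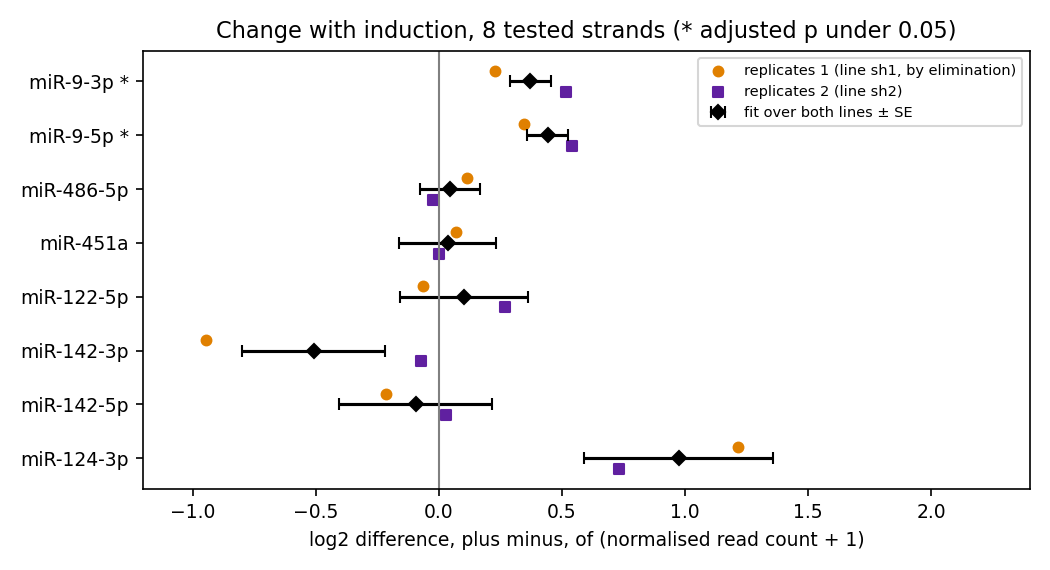
Log2 difference, plus against minus, of normalised read count plus 1 for the 8 tested strands, with the fit over both lines (diamond, ± SE) and the value in each line (circle, replicates 1; square, replicates 2). Both strands of miR-9 lie above 0 in each line, at 0.23 to 0.54, and miR-142-3p lies at −0.95 in replicates 1 and −0.07 in replicates 2.

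For the 4 low strands the reads were summed per condition and no p-value was taken. miR-150-5p had 19 reads in the plus and 9 in the minus libraries, which gives a ratio of 2.13 and a 95% exact binomial interval from 0.918 to 5.34. miR-144-5p had 8 against 18, a ratio of 0.448 (0.169 to 1.08). miR-486-3p had 11 against 15, a ratio of 0.740 (0.307 to 1.72), and miR-223-3p had 7 against 10, a ratio of 0.706 (0.228 to 2.05). Each of these intervals includes 1, so no change was detectable at this depth. The strands at the floor had 0 to 3 reads per condition, and no fold was taken for them.

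In the epithelial list 6 of 16 tested strands rose, 0 fell and the other 10 did not pass, beside the 13.4% that rose over all 709 and the 26.8% among rows whose mean reached 1000. At an unadjusted limma p under 0.05 there were 10 of the 16, beside 37.9% of all 709. The median log2 difference of the list was 0.22, and miR-141-5p at −0.26 and miR-200c-5p at −0.29 lay on the other side of 0 without passing. miR-192-5p, an intestinal miRNA, was at 0.78 (limma adjusted p = 9.78e-09) and miR-200b-3p at 0.28 (limma adjusted p = 0.00729). Of the 7 tested strands of the further blood, muscle, liver and neuron names 0 passed in limma and 0 had an unadjusted p under 0.05, and their median was −0.10. In the stroma and endothelium list 2 of 7 rose and 2 fell, beside 13.4% and 15.1% over all 709. At an unadjusted limma p under 0.05 there were 6 of these 7, so a high share at that cut was not particular to the epithelial list.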

How the data were processed

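Small RNA of 4 HCT116 libraries was measured as 1 deposited table of mature miRNAs. Its values are a signal, read counts that the authors adjusted to a common library size by a method not given in the sources used here. Per the labels cutadapt trimmed the reads. The submitters' processing notes list TopHat2 2.0.8b and edgeR as tools and hg19 and GRCh37 as builds, and say nothing of their roles. The counting tool and the version of the miRNA names are not given there. Columns were matched to samples by library number and index, since the shRNA is written sh4 in 2 column names and sh2 in the labels.

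The worth of 1 read was set per library as the step that placed most values under 60 within 0.1 of a whole number (86.9% to 100% did so). The values are normalised and their depth is not stated, so no count test was used. In minus replicate 2 the step placed 86.9% of these values, so its estimated reads and intervals are less certain. Divided by these steps, the totals came to 9566036 to 10302847 estimated reads. Counting intervals (95%) cover counting error only, as reads are not independent molecules.

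The test was limma 3.58.1 (R 4.3.3) of plus against minus, two-sided, on values to which a pseudocount of 1 was added before taking log2, with the prior variance following the mean. It covered the 709 miRNAs whose 4-library mean reached 10, and Benjamini-Hochberg adjusted p-values under 0.05 were called. A fold change on this scale understates the change of low miRNAs. The fit has 2 residual and 43.0 prior degrees of freedom. It was tested on simulated data. These were drawn with a common spread beyond counting error and no difference between shRNA lines, so they do not show the error rate in these libraries. With 43.0 prior against 2 residual degrees of freedom, each p-value rests mostly on the spread of all 709 miRNAs, not on that of its own strand. Each line gave a single library per condition, so that spread comes from these 2 lines only and may be technical. Same-numbered libraries share a shRNA line, for plus replicate 1 by elimination, and over 709 miRNAs their deviations from the group means correlated at 0.0555. Alternatives changed the pseudocount, level filter, scaling, trend, block and libraries. Every strand found by name is reported, and the members and lists were chosen with earlier results of these data known. Sequences and coordinates are from RefSeq (GRCh38.p14) and hairpin annotation from GENCODE 29 (GRCh38). The deposited table gives names only, so no coordinates of another build were mixed in.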

Additional observations from a re-analysis of the deposited data

Results flagged for a closer look

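In 3 of the 8 tested strands the change with induction had opposite signs in the 2 shRNA lines, each with 1 library per condition. For miR-486-5p the log2 difference was 0.11 in replicates 1 and −0.023 in replicates 2. For miR-122-5p it was −0.063 and 0.27, and for miR-142-5p −0.22 and 0.030. The difference between the lines was not tested, and over all 709 tested miRNAs 519 had the same sign in both lines.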

How the results depend on the processing

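The number of miRNAs called over the whole table, 202, became 101 under quantile normalization, 5 with no filter on low values and 5 with no mean-variance trend, and ranged from 7 to 115 with a library left out. With a library left out, the lone library of its condition is assumed to vary like the other pair. Of the restricted strands, 2 were called, 0 with no filter (limma adjusted p of 0.0857 for miR-9-5p and 0.126 for miR-9-3p), 0 with no trend (0.101 and 0.157) and 0 to 2 with a library left out (0 without either plus library, where 2 and 3 of 8 had an unadjusted p under 0.05, beside 28.1% and 33.0% of all 709). At an unadjusted limma p under 0.05 there were 5 of 16 restricted strands with no filter (23.1% of all 1345 rows) and 3 of 8 with no trend (30.9% of all 709). Over 13 alternatives miR-9-5p had log2 changes of 0.34 to 0.50 and miR-9-3p of 0.21 to 0.47, each above 0. With the replicate number as a block, 216 miRNAs were called in all, and the 2 called restricted strands were the same, so the block changed no call among them. Among strands that did not pass, miR-451a, miR-486-5p, miR-122-5p and miR-142-5p changed sign in some alternatives. By contrast, miR-124-3p and miR-142-3p kept their sign in every alternative. With equal totals miR-451a was at −0.021 and miR-486-5p at −0.012. With a library left out, the log2 difference spanned −0.046 to 0.12 for miR-451a, −0.14 to 0.23 for miR-486-5p, −0.059 to 0.26 for miR-122-5p and −0.30 to 0.11 for miR-142-5p. With a floor of 1 read 2 strands were at the floor, and with a floor of 10 reads 7 were at the floor and 1 was low. With a mean of at least 100 required, 4 were measured and 8 low. The ratios of the low strands stayed within their counting intervals when taken from the deposited values, and the share of 5p in miR-9 moved by less than its SD with any 1 library left out. Where no value is given for it, the cause of these changes was not tested.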

Other observations

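Among the 116 miRNAs compared, those with strands at least as even as those of miR-9 were, besides miR-9, miR-576, miR-574, miR-151a, miR-106b and miR-1304, named after their values were seen. The mean share of the 5p strand was 49.95% for miR-576, 47.1% for miR-574, 55.3% for miR-151a, 55.8% for miR-106b and 37.8% for miR-1304. By summed level of both strands miR-9 ranked 35 of the 116 miRNAs compared.

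miR-4697-3p, which shares bases 2 to 7 with the myeloid miR-223-3p, rose with a log2 change of 1.02 (limma adjusted p = 0.000583), from 61.5 and 46.1 in minus replicates 1 and 2 to 104 and 114 in plus replicates 1 and 2. It was chosen after its values were seen. miR-101-3p, which shares bases 2 to 7 with miR-144-3p, was at −0.20 and did not pass (limma adjusted p = 0.0870).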
